A study of Danio rerio with 4 samples.

Results

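The cytosolic heat shock proteins and co-chaperones were followed in liver RNA of zebrafish, as 96 genes measured by 149 probes out of 15554 named genes and 43603 probes. Members were all probes whose platform gene symbol belongs to the Hsp90, Hsp70, Hsp110 and small heat shock protein genes, the heat shock factors, the J-domain (dnaj) genes, the chaperonin CCT, the BAG genes, ahsa1 or stip1, without hspd1, hspe1, hspa9, hspa5 and hsp90b1. The symbols place them in the Hsp90 (3 genes), Hsp70 (9), Hsp110 (3), small heat shock protein (9), heat shock factor (5), J-domain (48), CCT (7) and BAG (7) families, and 5 are other co-chaperones. The 5 factor genes include hsf2bp, which is counted there by its symbol and encodes a binding partner of Hsf2. Likewise, hspbp1 and hspbap1 entered only because their symbols start with hspb, and they are counted with the other co-chaperones. The label cytosolic does not cover all of the 96 genes. The J-domain symbols also bring in genes whose products are known from the endoplasmic reticulum or from mitochondria. The Hsp70 symbols likewise bring in hspa13, a microsomal relative.

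The study set 2 control RNAs without cadmium (replicates 2 and 3) against 2 RNAs of fish given 5 µM cadmium (replicates 1 and 2), all from day 4, on 4 two-colour Agilent arrays. Each array held 1 cadmium and 1 control RNA in a loop, in which each RNA was labelled once with each dye: cadmium replicate 1 was set against control replicate 2 on array 1 and against control replicate 3 on array 2, and cadmium replicate 2 against control replicate 3 on array 3 and against control replicate 2 on array 4. The dose is in the unit of the design text, because the source labels put a temperature unit after it. The labels used here name no strain, sex or age, nor how many fish gave each RNA. All ratios below are log2 of cadmium over control, with the sign of arrays 1 and 3 turned. This reads the deposited ratio as the red over the green channel, the likely direction, since it is limma's default and each title starts with the RNA labelled red. The opposite reading would turn every sign and keep every size and p.

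Heat shock proteins hold unfolded proteins and help them to their native form. Hsp70 binds short exposed stretches in a cycle driven by ATP that J-domain proteins start and BAG and Hsp110 proteins reset, and Hsp90 completes the folding of kinases and receptors passed on by the adaptor that stip1 encodes. Heat shock factor 1, when damaged proteins draw its chaperones away, induces the Hsp70, Hsp90 and J-domain genes of the stress response, and cadmium is a textbook inducer of that response in fish and mammalian cells because it binds protein thiols.

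None of the 96 genes differed between the groups past the threshold. In limma, 0 members had an adjusted p under 0.05, as did 0 of all 15554 genes (0%), and the smallest adjusted p of a member was 1.00 to 3 digits. At an unadjusted p under 0.05 there were 2 members, hspa14 and hsf2, both higher, a share of 2.08% beside 2.02% of all genes (1.07% higher and 0.945% lower). Of the members, 56 stood higher and 40 lower in cadmium, 58.3% higher beside 56.9% of all genes. The median log2 difference was 0.013 over the members and 0.017 over all genes. Differences were small, as they were over all genes: the median size was 0.082 for the members and 0.074 for all genes. Of the 96, 51 lay within 0.1 of 0 and 78 within 0.2, and 5 reached 0.5 in size, beside 3.26% of all genes. These 5 were hsf2, hspa14, dnajb9a, dnajc3b and dnajc22, each on one side of 0 on all 4 arrays, as 1.73% of all genes were at that size. By probe, 80 of the 149 were higher and 2 had an unadjusted p under 0.05 in limma, beside 1.52% of all probes.

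**Figure D1:**
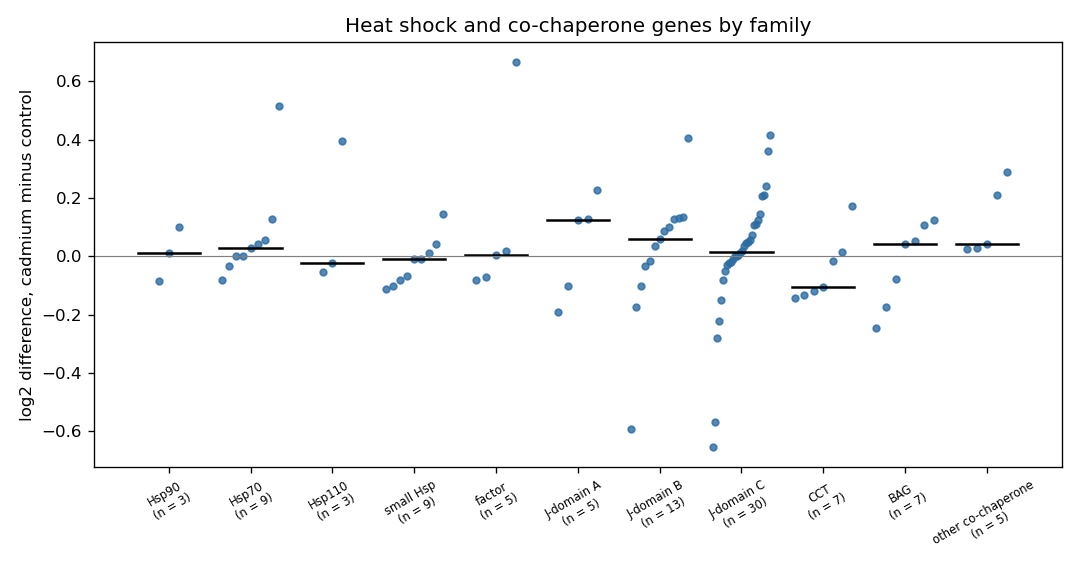
Each point is the log2 difference (cadmium minus control, vertical axis) of 1 of the 96 genes, by family, and the black line is the family median. Most points lie within 0.2 of 0, with hsf2 (0.67) and hspa14 (0.52) above and dnajc22 (-0.66), dnajb9a (-0.59) and dnajc3b (-0.57) below the rest.

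A gene lay on one side of 0 on all 4 arrays in 11 cases above and 7 below, together 18.8% of the members, where 14.9% of all genes did so (7.99% above and 6.9% below). Both cadmium RNAs lay outside the range of both control RNAs for 24 members (16 above, 8 below), 25% of them beside 21.8% of all genes (11.7% above and 10.2% below). Both shares of the members were close to those of the whole array.

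The stress-inducible Hsp70 genes stood near 0. For hsp70l (Entrez Gene 560210), which is strongly heat-induced in zebrafish, the ratios were 0.21, -0.21, 0.049 and 0.11 on arrays 1 to 4. The cadmium and control RNAs overlapped. Its log2 difference was 0.041 ± 0.12 (moderated SE, 2 RNAs per group), and the 95% interval from limma, -0.30 to 0.38, runs from a ratio of 0.812 to 1.30. That interval reflects only the spread among the 4 RNAs, moderated by the variance over all genes. It cannot exclude an induction, because spot intensity was not used and a dim probe could miss one. A second inducible gene, hsp70.3 (Entrez Gene 30671), had ratios of -0.13, -0.15, 0.15 and 0.24 and a difference of 0.030 ± 0.15, with an interval of -0.38 to 0.44. Both of its arrays with cadmium replicate 1 were below 0 and both with cadmium replicate 2 above, so that the controls lay between the cadmium RNAs. The ratios of hspa1b, a further inducible copy, were -0.19, 0.026, 0.28 and 0.10, again overlapping, with a difference of 0.056 ± 0.15. Genes of this family are near-copies, and since probe sequences were not used here, signal shared between hsp70l, hsp70.3 and hspa1b cannot be told apart.

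The constitutive Hsp70 genes, which serve folding without stress, also overlapped between groups. For hspa8 (3 probes) the ratios were 0.53, -0.15, -0.29 and -0.079, a high value on array 1 alone, and the difference was -0.00014 ± 0.22. The second copy hspa8b (3 probes) had the lowest moderated SE of the 9 Hsp70 genes, a value that rests in part on the variance over all genes. Its ratios were -0.0075, 0.021, -0.050 and 0.042 and its difference 0.0014 ± 0.081. Its interval of -0.23 to 0.23 runs from a ratio of 0.855 to 1.17. The distant relatives hspa12a and hspa12b were at -0.034 ± 0.10 and -0.081 ± 0.28.

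One Hsp70 gene stood apart from the others. hspa14 (Entrez Gene 565232, 1 probe) encodes the Hsp70 subunit of the ribosome-associated complex in mammals. Its ratios were 0.14, 0.55, 0.60 and 0.78, all above 0, and both cadmium RNAs exceeded both controls. The difference was 0.52 ± 0.15, a ratio of 1.43 with an interval of 0.088 to 0.94 on the log2 scale, and the unadjusted p was 0.0288 (adjusted p = 1.00 in limma). It was at 0.34 in cadmium replicate 1 and 0.69 in cadmium replicate 2, each against the mean of the controls. The J-domain partner of that complex in mammals, dnajc2, had ratios of -0.38, 0.046, 0.14 and 0.27 and a difference of 0.018 ± 0.17. These are means of 2 probes of opposite sign on arrays 2, 3 and 4, at 0.31, -0.24 and -0.096 and at -0.22, 0.53 and 0.63.

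None of the 3 Hsp90 genes passed the test. For hsp90aa1.1 (Entrez Gene 30591), the form that zebrafish skeletal muscle needs, the ratios were 0.10, -0.025, 0.11 and -0.14 and the difference 0.012 ± 0.085. Its neighbour in sequence, hsp90aa1.2, had 0.15, 0.045, 0.24 and -0.029 and 0.10 ± 0.086, with both cadmium RNAs above both controls by a small margin. The constitutive hsp90ab1 (4 probes) varied more, from -0.38 to 0.42 over the arrays, with a difference of -0.083 ± 0.15. Among the Hsp110 genes, whose products exchange the nucleotide on Hsp70, hspa4b and hspa4l were at -0.024 ± 0.13 and -0.054 ± 0.11, whereas hspa4a had ratios of -0.038, 0.10, 0.70 and 0.82 and a difference of 0.40 ± 0.27. The size of hspa4a came from cadmium replicate 2, at 0.76 over the controls, while cadmium replicate 1 was at 0.032.

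**Figure D2:**
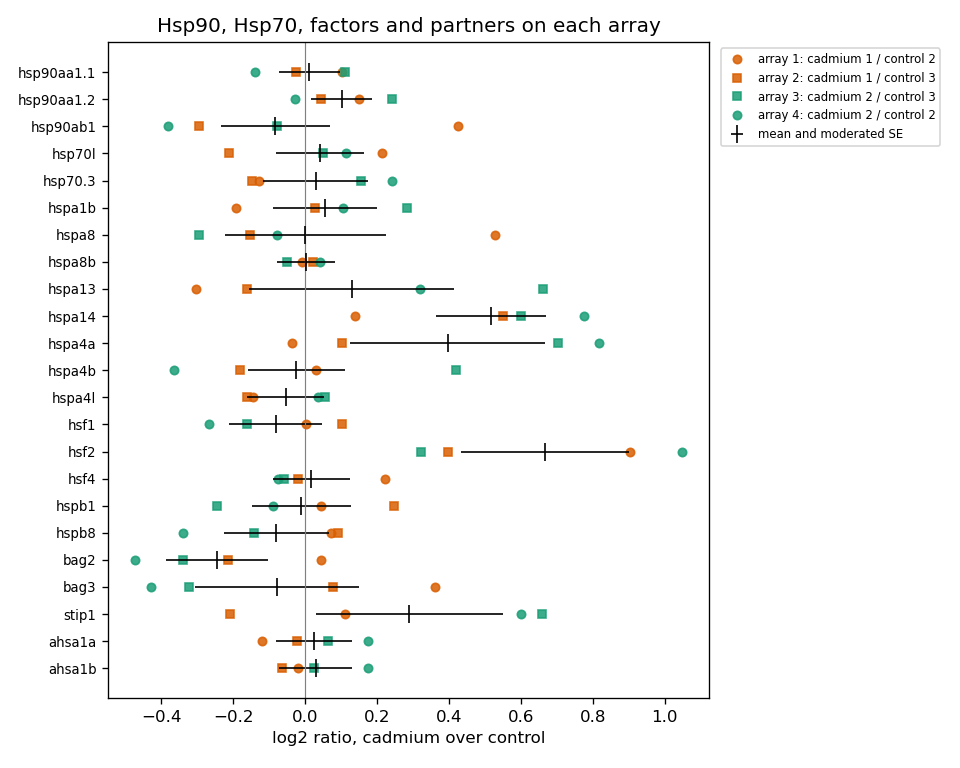
Log2 ratios of cadmium over control (horizontal axis) on each of the 4 arrays for Hsp90, Hsp70, Hsp110, factor, small heat shock protein, BAG and co-chaperone genes; colours mark the cadmium RNA, symbols the control RNA, and the black mark is the mean with its moderated SE. hsf2 and hspa14 lie above 0 on all 4 arrays, while hspa4a and stip1 are high only with cadmium replicate 2.

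Among the transcription factors, hsf1 (Entrez Gene 58123), the main regulator of the heat shock response, had ratios of 0.0010, 0.10, -0.16 and -0.27 and a difference of -0.082 ± 0.13. The groups overlapped. For hsf2 (Entrez Gene 140427, 1 probe), a factor of development and gametogenesis that can pair with hsf1 in mammals, the ratios were 0.90, 0.40, 0.32 and 1.05, all above 0. Its difference of 0.67 ± 0.23 was the highest of the 96 genes, a ratio of 1.59 with an interval of 0.011 to 1.32 on the log2 scale and an unadjusted p of 0.0477 (adjusted p = 1.00 in limma). The cadmium RNAs agreed closely (0.65 and 0.68 over the controls), but the controls differed by 0.62 from each other, and against control replicate 3 alone the difference was 0.36. Of the remaining factor genes, hsf4, known from the lens, was at 0.017 ± 0.11, and hsf5, known from germ cells, at 0.0049 ± 0.089. The gene hsf2bp, also known from germ cells, encodes a binding partner of Hsf2 and not a factor, and was at -0.071 ± 0.11.

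The 9 small heat shock protein genes, whose products hold unfolded proteins without ATP, were 3 higher and 6 lower (beside 43.1% of all genes lower). They lay between -0.11 (hspb15) and 0.15 (hspb9l), with a median of -0.011. For hspb1 (Hsp27 in mammals) the ratios were 0.044, 0.25, -0.24 and -0.088 and the difference -0.011 ± 0.14. For hspb8, the partner of bag3 in selective autophagy, 5 probes averaged 0.072, 0.090, -0.14 and -0.34 with a difference of -0.080 ± 0.15. hspb6 was at -0.10 ± 0.18 and hspb11 at 0.011 ± 0.084. In the gene means of hspb1, hspb6 and hspb8, both arrays with cadmium replicate 1 lay above 0 and both with cadmium replicate 2 below it. Not all of their probes did so. On array 1, 1 hspb1 probe was at -0.10 and 1 hspb6 probe at -0.031, and 1 hspb8 probe was at 0.12 on array 3. The share of all genes with that pattern was not computed. The values of hspb9l, 0.28, 0.0053, 0.29 and 0.014, were all above 0, but 2 of them only by 0.0053 and 0.014.

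The 7 BAG genes ranged from -0.25 to 0.12. bag3, an inducible gene of the heat shock response, had ratios of 0.36, 0.077, -0.32 and -0.43, turning with the cadmium RNA, and a difference of -0.078 ± 0.23. For bag2, an inhibitor of the ubiquitin ligase CHIP, they were 0.044, -0.21, -0.34 and -0.47, with both cadmium RNAs below both controls and a difference of -0.25 ± 0.14. The exchange factor bag1 was at 0.12 ± 0.10, bag4 at 0.040 ± 0.23, bag5 at 0.052 ± 0.091, bag6 at 0.11 ± 0.15 and bag6l at -0.17.

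The 5 other co-chaperones were all above 0 (beside 56.9% of all genes), between 0.024 and 0.29. Of the 5, 0 had both cadmium RNAs above both controls (beside 11.7% of all genes). Against the control mean, 2 of the 5 were higher in cadmium replicate 1 (beside 47.5% of all genes). All 5 were higher in cadmium replicate 2 (beside 55% of all genes). For stip1 (Entrez Gene 493606), the adaptor between Hsp70 and Hsp90, the ratios were 0.11, -0.21, 0.66 and 0.60 and the difference 0.29 ± 0.26. It was high on both arrays of cadmium replicate 2 and on either side of 0 on those of replicate 1. The Hsp90 activators ahsa1a and ahsa1b were at 0.024 ± 0.10 and 0.029 ± 0.10, the Hsp70 exchange factor hspbp1 at 0.21 ± 0.16 and hspbap1 at 0.043 ± 0.097.

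CCT is the ring chaperonin that folds actin and tubulin. Of its 7 measured subunit genes 5 were lower (beside 43.1% of all genes) and 2 higher, with a median of -0.11, the lowest of the families. For 5 of the 7 both cadmium RNAs lay outside both controls, 4 below (cct3, cct4, cct5 and tcp1, beside 10.2% of all genes) and 1 above (cct6a, beside 11.7%). The sizes were small. The ratios of cct5 were -0.046, -0.12, -0.11 and -0.15, with a difference of -0.11 ± 0.082. These are means of 2 probes that disagreed, at -0.20, 0.19, -0.099 and 0.044, and at 0.11, -0.44, -0.12 and -0.34. Neither cct5 probe was on one side of 0 on all 4 arrays. The ratios of cct4 were -0.0034, -0.099, -0.23 and -0.20, with a difference of -0.13 ± 0.10. For tcp1 and cct3, which stood at -0.14 ± 0.10 and -0.12 ± 0.081, array 1 was above 0 and arrays 2 and 4 below it. cct6a went the other way, with ratios of 0.22, 0.040, 0.38 and 0.052 and a difference of 0.17 ± 0.090. The subunits cct7 and cct8 were at 0.013 ± 0.14 and -0.018 ± 0.17 and overlapped. The lowest unadjusted p of a CCT gene was 0.129 in limma (cct6a), and cct2 was not matched on the array.

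The 48 J-domain genes were 30 higher and 18 lower, 62.5% higher beside 56.9% of all genes, with a median of 0.035. At an unadjusted p under 0.05 there were 0 of them in limma. Of the A class, the general partners of Hsp70, dnaja1 was above 0 on all 4 arrays (0.084, 0.064, 0.31 and 0.042; difference 0.12 ± 0.098), whereas dnaja2a and dnaja2b were at -0.19 ± 0.17 and -0.10 ± 0.10. The mitochondrial dnaja3a and dnaja3b were above 0 on all 4 arrays, at 0.23 ± 0.14 and 0.13 ± 0.081. For dnaja3a this is a mean over probes, 1 of which was at -0.19 on array 2. For dnaja3b the ratios were 0.11, 0.15, 0.13 and 0.13, close to each other.

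The B class includes the J-domain partners that heat shock induces together with Hsp70. dnajb1b (Entrez Gene 327244) had ratios of -0.089, -0.17, 0.69 and 1.18 and a difference of 0.40 ± 0.40, below 0 with cadmium replicate 1 and high with cadmium replicate 2. Its copy dnajb1a followed the same order of the cadmium RNAs on a smaller scale, with -0.079, 0.028, 0.36 and 0.20 and 0.13 ± 0.14. The anti-aggregation genes dnajb6a and dnajb6b were at 0.034 ± 0.14 and 0.099 ± 0.14, dnajb4 at -0.017 ± 0.082 and dnajb5 at 0.087 ± 0.11. For dnajb14, a J protein of the endoplasmic reticulum membrane, the ratios were 0.15, -0.032, -0.58 and -0.23 and the difference -0.18 ± 0.21.

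A group of 7 J-domain genes of the endoplasmic reticulum, formed after the values were seen, split into 4 higher and 3 lower. It does not hold all such genes, and dnajb12a, dnajb12b and dnajb14 were left out. dnajb9a (Entrez Gene 574005), a target of the unfolded protein response, had ratios of -1.06, -0.025, -0.10 and -1.19. Both arrays with control replicate 2 were below -1, and those with control replicate 3 were close to 0. Its difference was -0.59 ± 0.39 and the controls lay 1.06 apart, so that against control replicate 3 alone it was -0.065. The copy dnajb9b was at -0.62, -0.45, 0.79 and -0.13, with a difference of -0.10 ± 0.37. For dnajc3b (Entrez Gene 58154), an inhibitor of the kinase PERK in mammals, the ratios were -0.43, -0.16, -0.38 and -1.30, all below 0, and the difference was -0.57 ± 0.30. With the dye effect taken out, cadmium replicate 1 (-0.0135) was level with control replicate 3 (-0.0136), and control replicate 2 was at 0.58. The RNAs of dnajc3b thus overlapped between the groups. Its copy dnajc3a was at 0.21 ± 0.19, on the other side of 0. The folding partners dnajb11, dnajc1 and dnajc10 were at 0.13 ± 0.084, 0.11 ± 0.086 and 0.21 ± 0.22. As means over probes, dnajb11 and dnajc1 lay on one side on all 4 arrays. No single dnajb11 probe did so, and the dnajc1 probes differed in this.

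The 30 C-class genes have specialised tasks. dnajc22 (Entrez Gene 796659), a membrane J protein, had ratios of -0.044, -0.28, -1.40 and -0.90 and the lowest difference of the 96 genes, -0.66 ± 0.39. All 4 arrays were below 0, the arrays of cadmium replicate 2 far more so than those of replicate 1, and cadmium replicate 1 did not lie below both controls. The auxilin gene dnajc6, which removes clathrin coats, had evenly low ratios of -0.11, -0.18, -0.13 and -0.18 and a difference of -0.15 ± 0.080. dnajc9, a histone chaperone, had -0.17, -0.092, 1.06 and 0.86 and 0.41 ± 0.40, and dnajc21, a factor of ribosome assembly, -0.11, 0.017, 0.78 and 0.76 and 0.36 ± 0.30. In both, cadmium replicate 2 was high and cadmium replicate 1 near or below 0. dnajc19, a part of the motor that imports mitochondrial proteins, ran the other way with 0.043, 0.39, -0.42 and -1.14 and a difference of -0.28 ± 0.41. The adaptor-like dnajc7 was at 0.11 ± 0.086, above 0 on all 4 arrays, the first only by 0.0030. That is a mean over probes, 1 of which was at -0.12 on both arrays 3 and 4. Further C-class genes were dnajc5ga, of the cysteine string proteins (0.24 ± 0.26), dnajc4 (-0.22 ± 0.19) and dnajc16l (-0.050 ± 0.32), and 16 of the 30 lay within 0.1 of 0. The median size of the 30 was 0.077, beside 0.074 for all genes.

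**Figure D3:**
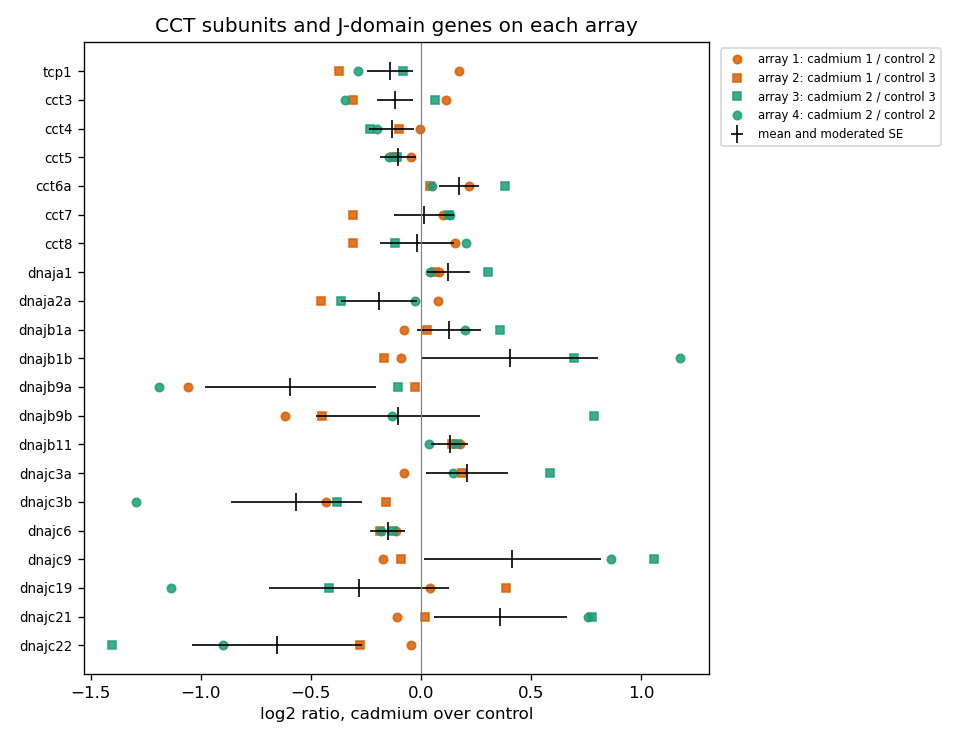
Log2 ratios of cadmium over control (horizontal axis) on each of the 4 arrays for the 7 CCT subunits and 14 J-domain genes, with colours, symbols and black marks as in the plot of Hsp90 and Hsp70 genes. dnajb1b, dnajc9 and dnajc21 split by the cadmium RNA, and dnajb9a by the control RNA.

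Some members differed between the cadmium RNAs. By at least 0.5, cadmium replicate 2 exceeded cadmium replicate 1 for 11 members (11.5%, beside 11.3% of all genes) and lay under it for 5 (5.21%, beside 5.72%). The 11 were bag4, dnajb1b, dnajb9b, dnajc9, dnajc10, dnajc16l, dnajc21, dnajc5ga, hspa13, hspa4a and stip1, and the 5 were bag3, dnajc3b, dnajc19, dnajc22 and hspa12b. These are gene means, and probes could differ. On arrays 3 and 4, 1 dnajc5ga probe was at 1.09 and 0.99 and the other at 0.030 and 0.19. For dnajc10, 1 probe was at 0.88 and 0.67 there and the other at 0.15 and 0.23. For hspa13, a microsomal Hsp70 relative, the ratios were -0.30, -0.16, 0.66 and 0.32. The controls were at least 0.5 apart for 6 members (6.25%, beside 3.09% of all genes), namely dnajb9a, dnajb9b, dnajc16l, dnajc19, dnajc3b and hsf2. Where cadmium replicate 2 alone stood for the treatment and was assumed to vary like the controls, limma called 7 members at an adjusted p under 0.05, 7.29% beside 9.36% of all genes: dnajb1b, dnajc9, dnajc21, hspa4a, hspa14 and stip1 higher and dnajc22 lower. At an unadjusted p under 0.05, 22 members passed in that fit (beside 22.7% of all genes). With cadmium replicate 1 alone limma called 0 of all genes, and 2 members had an unadjusted p under 0.05 (2.08%, beside 4.96% of all genes).

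Markers of ovary and oocytes also differed between the cadmium RNAs. All 22 measured markers of 24 listed were highest in cadmium replicate 2, and 20 were lowest in cadmium replicate 1. Against the mean of the controls their median was 1.70 in cadmium replicate 2 and -0.44 in replicate 1. Of the members, 43 were highest in cadmium replicate 2 (44.8%, beside 38.7% of all genes), 20 were lowest in cadmium replicate 1 (20.8%, beside 25.8%) and 15 were both (15.6%, beside 17.7%). Another 31 were lowest in cadmium replicate 2 (32.3%, beside 29.4%). Against the control mean, 45 members were higher in cadmium replicate 1 (beside 47.5% of all genes) and 58 in cadmium replicate 2 (beside 55% of all genes). The part of these markers in the members' values was not tested. Pancreatic markers were set apart by the control RNAs (list medians of -0.74, 0.77, 1.31 and -0.48 on arrays 1 to 4). All 11 measured leukocyte markers were lower (beside 43.1% of all genes), with a median of -0.060. Against the control mean, 4 of the 11 were higher in cadmium replicate 1 and 2 in cadmium replicate 2. Of the 11, 7 were lowest in cadmium replicate 2 (beside 29.4% of all genes). Of 14 hepatocyte markers, 9 were higher (beside 56.9% of all genes), with a median of 0.058. Ratios hold no level, so the share of any cell type, or whether its defining genes were near absence, is not measured here. In whole liver RNA fewer cells of a type and less RNA per cell cannot be told apart.

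**Figure D4:**
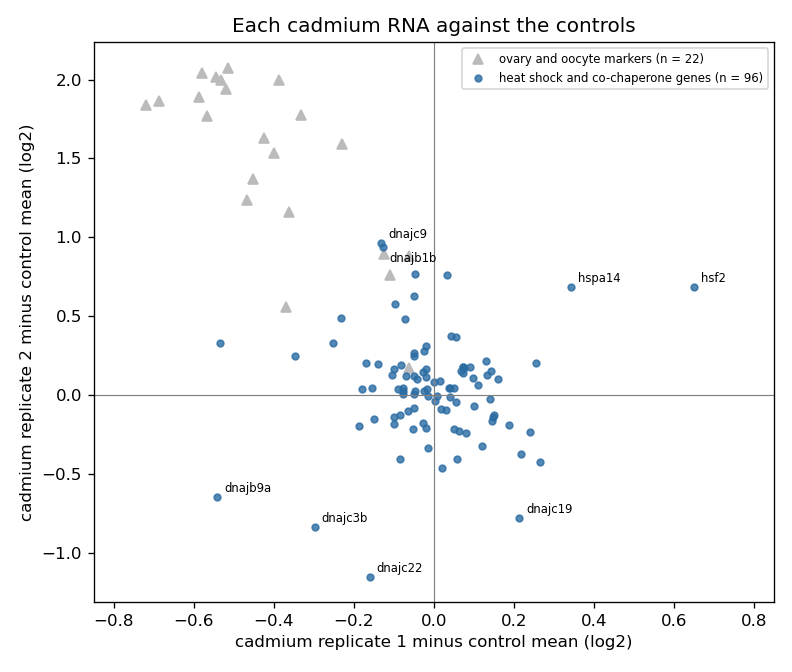
Each point is a gene, with cadmium replicate 1 minus the control mean on the horizontal and cadmium replicate 2 minus the control mean on the vertical axis (log2), blue for the 96 heat shock and co-chaperone genes and grey for 22 ovary and oocyte markers. Against the control mean, hsf2 and hspa14 are high in both cadmium RNAs and dnajb9a and dnajc3b low in both. The controls of hsf2, dnajb9a and dnajc3b were themselves at least 0.5 apart. dnajc9 and dnajb1b are high only in replicate 2, where the ovary markers also lie above 0.

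Genes that work with these chaperones but fall outside the symbols were read from lists of their partners. Of 34 measured partners of Hsp90 and Hsp70, 24 were higher and 10 lower (70.6% higher, beside 56.9% of all genes), with a median of 0.034, and 0 had an unadjusted p under 0.05 in limma. Their largest moderated t belonged to fnip1 (-0.10 ± 0.085), pih1d1 (0.15 ± 0.13) and ptges3a (0.11 ± 0.096), the last the gene of the Hsp90 partner p23. Prefoldins and other CCT partners were 5 higher and 6 lower, with a median of -0.081, led by txndc9 (0.17 ± 0.11), vbp1 (-0.17 ± 0.12) and uri1 (-0.17 ± 0.12), and also had 0 at that p.

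Among 18 genes of proteotoxic and oxidative stress, 12 were higher and 6 lower (66.7% higher, beside 56.9% of all genes). In limma, 2 had an unadjusted p under 0.05, both lower (11.1%, beside 2.02% of all genes on either side). The list was chosen with earlier results of these data known, so no conclusion is drawn from that share. The 2 were the heme oxygenase gene hmox1a, with ratios of -0.65, -1.24, -0.76 and -0.31, and atf3, a stress-induced transcription factor gene. The ratios of atf3 were -0.94, -0.29, -0.34 and -0.63, with a difference of -0.55 ± 0.19. The pro-apoptotic factor gene ddit3 came next by moderated t, with -0.22, -0.27, -0.54 and -0.77 and -0.45 ± 0.17. All 3 lay below 0 on all 4 arrays, with adjusted p = 1.00 in limma. Among the 12 higher genes, chac1 was at 0.40 ± 0.28, ubb at 0.36 ± 0.19 and srxn1 at 0.14 ± 0.081, also named after their values were seen. Both cadmium RNAs exceeded both controls for ubb and srxn1 but not for chac1. In the whole list, both cadmium RNAs lay above both controls for 3 genes (beside 11.7% of all genes) and below both for 5 (beside 10.2%). Together these were 44.4% of the list, beside 21.8% of all genes. No conclusion is drawn from these shares either, for the same reason. The collagen chaperone genes serpinh1a and serpinh1b, named after their values were seen, were at 0.027 ± 0.16 and 0.056 ± 0.094, and the lens and muscle small heat shock gene cryaba at 0.023 ± 0.090.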

How the data were processed

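The authors deposited 1 log2 ratio per probe and array, with limma named without a version per the submitters' processing notes. Labelling followed Agilent's two-colour protocol, per the labels. For background correction, normalization, filters and ratio direction, the method was not given in the sources used here. The deposited columns were read as log2, a base taken from limma's convention, and had medians near 0, and arrays of one orientation correlated at -0.043 and -0.22. No depth or spot intensity was used, and the number of arrays limits the precision.

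Per probe, 3 differences between RNAs and 1 dye effect were solved from the 4 arrays, and values were averaged over the probes of a gene (42 members had over 1 probe, of which 26 had all probes on one side). All 15554 genes entered a linear model of 2 cadmium against 2 control RNAs (limma 3.58.1, R 4.3.3; two-sided moderated test, Benjamini-Hochberg threshold 0.05, 2 residual and 1.91 prior degrees of freedom). A gene's difference equals the mean of its 4 ratios. The design text calls the replicates biological. Spread in the p-values is that among 4 RNAs, moderated by the variance over all genes. The code was tested on simulated data. Probes were named by the platform's annotation, and all 96 member identifiers were found in the RefSeq gene table. Named members were 48 core genes and 8 others with the largest moderated t, and array ratios are printed for some of them. The 13 further members dnajc9, dnajc21, dnajc5ga, dnajc19, dnajb9b, dnajc4, dnajc2, dnajc3a, dnajc10, dnajb14, dnajc16l, bag4 and dnajc1, and others named by family or by count, were chosen after their values were seen. Members and lists were chosen with earlier results of these data known. The other marker lists gave 3 of 13 skeletal muscle genes and 4 of 7 red cell genes higher (beside 56.9% of all genes). Alternatives concerned the unit, the scaling, the probes, a variance filter, the prior and each RNA.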

Additional observations from a re-analysis of the deposited data

How the results depend on the processing

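With the arrays as units and a dye term, 0 of all genes had an adjusted p under 0.05, and without the dye term 2 did, neither a member, and 5 members had an unadjusted p under 0.05 (beside 7.13% of all genes). That last count was 1 with scaled arrays, 1 with quantile-normalized arrays and 1 with robust eBayes, beside 2.23%, 2.33% and 1.91% of all genes. Without the genes of lowest variance, which left 76 members, 10 lay on one side on all 4 arrays and 14 had both cadmium RNAs outside both controls. The same shares over all genes left by that filter were not computed, so these 2 counts say nothing particular to the members. Leaving out 1 RNA gave 0 to 1456 genes at an adjusted p under 0.05 and 0 to 22 members at an unadjusted p under 0.05, the highest of both without cadmium replicate 1 (22.7% of all genes at that p). The member median then ran from -0.018 to 0.044. Counts of arrays or RNAs on one side need all 4 RNAs and were not run there. The number of higher members stayed within 1.5 times under the alternatives run. Signs turned for 9 named members under another setting: with scaled arrays 0.039 (hspa8), 0.015 (hspb1), -0.0039 (dnajc2), with quantile-normalized arrays 0.10 (hspa8), 0.027 (hspa12b), 0.035 (hspb1), 0.015 (bag3), -0.0093 (ahsa1a), -0.0014 (cct7), -0.053 (dnajc2), -0.020 (bag4), and with the median over probes -0.020 (hspa8b). When 1 RNA was left out, 43 of 69 named members turned sign. Their log2 differences ran over -0.081 to 0.16 (hsp70l), -0.14 to 0.20 (hsp70.3), -0.082 to 0.19 (hspa1b), -0.22 to 0.22 (hspa8), -0.014 to 0.017 (hspa8b), -0.17 to 0.12 (hspa4b), -0.15 to 0.046 (hspa4l), -0.10 to 0.032 (hspa12a), -0.43 to 0.27 (hspa12b), -0.23 to 0.49 (hspa13), -0.018 to 0.042 (hsp90aa1.1), -0.23 to 0.064 (hsp90ab1), -0.17 to 0.14 (hspb1), -0.32 to 0.12 (hspb6). Others ran over -0.24 to 0.081 (hspb8), -0.017 to 0.040 (hspb11), -0.21 to 0.051 (hsf1), -0.067 to 0.10 (hsf4), -0.41 to 0.025 (dnaja2a), -0.025 to 0.28 (dnajb1a), -0.13 to 0.94 (dnajb1b), -0.10 to 0.17 (dnajb6a), -0.049 to 0.25 (dnajb6b), -0.038 to 0.0029 (dnajb4), -0.019 to 0.19 (dnajb5), -0.38 to 0.22 (bag3), -0.050 to 0.26 (bag6), -0.070 to 0.12 (ahsa1a). The rest ran over -0.041 to 0.10 (ahsa1b), -0.050 to 0.63 (stip1), -0.10 to 0.13 (cct7), -0.22 to 0.18 (cct8), -0.13 to 0.96 (dnajc9), -0.046 to 0.77 (dnajc21), -0.096 to 0.58 (dnajc5ga), -0.78 to 0.21 (dnajc19), -0.53 to 0.33 (dnajb9b), -0.47 to 0.020 (dnajc4), -0.17 to 0.21 (dnajc2), -0.071 to 0.48 (dnajc10), -0.41 to 0.057 (dnajb14), -0.36 to 0.26 (dnajc16l), -0.25 to 0.33 (bag4). Members called only without cadmium replicate 1 that kept their sign ran over 0.032 to 0.76 (hspa4a), 0.34 to 0.69 (hspa14), -1.15 to -0.16 (dnajc22). The cause was not tested. No paired analysis was possible because the groups share a single replicate number. Signal over background was not used here, so no limit from dim probes is given.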

Other observations

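Probes of 1 gene did not always run together, which the gene means hide. The 4 probes of hsp90ab1 gave log2 differences between -0.30 and 0.25, and on array 4 they lay between -1.27 and 0.67. Of the 2 dnajc21 probes, 1 had ratios of -0.54, -0.05, 1.32 and 1.33 on arrays 1 to 4 and the other 0.32, 0.08, 0.24 and 0.19, so the split between the cadmium RNAs was that of 1 probe. Both dnajb1b probes were high on arrays 3 and 4 (0.90 and 1.41 for 1, 0.49 and 0.94 for the other), and both dnajb9a probes were low on arrays 1 and 4 (-0.99 and -1.18, and -1.12 and -1.20).

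The Hsp90 partner gene fkbp5, named after its values were seen, had the largest difference in size of the 34 partners, -0.81 ± 0.72. Its ratios were 0.30, 0.023, -2.12 and -1.45, low with cadmium replicate 2 only. The chaperone gene hyou1 had -0.21, -0.44, 1.25 and 1.14 and the Hsp90 client-complex genes ruvbl1 and ruvbl2 -0.20, -0.35, 0.95 and 1.21 and 0.17, -0.60, 0.64 and 1.00, high with cadmium replicate 2 only. They were also named after their values were seen. Of the 34 partners, 16 were highest in cadmium replicate 2 (beside 38.7% of all genes) and 7 were lowest there (beside 29.4%).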
